A study of Mus musculus with 6 samples.

Results

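The cytosolic ribosomal protein genes were followed here as a set of 77 genes in primary mouse chondrocytes with and without the potassium channel subunit Girk3. Members were protein-coding genes whose symbol is that of a large (Rpl) or small (Rps) subunit protein, an optional single letter included, together with Rplp0, Rplp1, Rplp2 and Rpsa. They are 77 of 43346 genes listed, of which 22032 are listed as protein-coding, and 46 have large and 31 have small subunit symbols. Sex-chromosome genes were left out, which removed 4 genes on the X chromosome (Rpl10, Rpl39, Rpl36a and Rps4x). Of the 77, 72 encode the ordinary proteins and 5 are copies that resemble one of them (Rpl3l, Rpl10l, Rpl39l, Rps27l and Rps4l). The name pattern also misses some true ribosomal protein genes, which are described separately near the end.

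The libraries came from epiphyseal cartilage cells, freed by collagenase, of C57BL/6 mice aged 5 days. There were 3 Girk3-null libraries (Girk3-/-, with no promoter or Cre named in the labels) and 3 wild-type (WT) libraries, described as biological replicates. No treatment was given, and all animals were labelled male. Polyadenylated RNA was sequenced, and libraries held 34279516 to 60392837 counts, the lowest and the highest being Girk3-null replicates 3 and 1. Kcnj9, which encodes Girk3, was at 0 counts in every library, WT included, so the genotype could not be checked from its transcript. The sex label did not match in 5 libraries. Girk3-null replicate 1 alone held Y-linked counts in number (16088, against 0 to 7 elsewhere) and had 19 Xist counts, against 67346 to 144825 elsewhere. The chondrocyte markers fixed for the check were all detected, and all 7 had higher mean levels in Girk3-null than in WT libraries (median log2 fold change 0.41). The mean log2 CPM of that list overlapped between the groups, at 11.31 to 11.89 in Girk3-null and 10.81 to 11.36 in WT libraries. Endothelial markers were lower for 8 of 8 tested (median −1.23), erythroid markers for 9 of 9 (median −1.22) and skeletal muscle markers for 7 of 8 (median −1.34). The other 2 lists were mixed. Leukocyte markers had 5 higher and 4 lower of 9 tested (median 0.02), and stromal markers 3 higher and 3 lower of 6 (median 0.05). The mean log2 CPM of the endothelial list was 1.16 to 2.92 in Girk3-null and 3.29 to 4.24 in WT libraries, that of the erythroid list 1.12 to 2.77 in Girk3-null and 1.596 to 3.69 in WT libraries, and that of the muscle list 0.04 to 1.69 in Girk3-null and 1.27 to 2.80 in WT libraries. None of these marker genes passed the test described below, and their part in the results was not tested. In bulk RNA, fewer cells of a type and less RNA per cell cannot be told apart.

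A ribosome is built from ribosomal RNA and one copy of most ribosomal proteins, so cells tend to make these proteins in matched amounts. Their mRNAs are among the most abundant in growing cells, and most begin with a run of pyrimidines (C or T) at the first base, the 5′ terminal oligopyrimidine motif, through which mTOR and Larp1 control their translation. In cartilage, chondrocytes secrete large amounts of collagen and proteoglycan, and mutations in some ribosomal protein genes disturb skeletal growth in mice and people.

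Start-site sequences were searched for such runs. RefSeq promoter windows (build GRCm38.p6) were matched by symbol for 56 of the 77 members. The longest uninterrupted stretch of C or T, read on the gene's strand only, was measured from 10 bases before to 15 bases after the annotated start. Bases beyond these limits were not counted, so a stretch can run on past them, as that of Rpl7a does. Where a symbol had several windows, the one with the longest stretch was used, for members and for all genes. A stretch of at least 10 was present in 16 of the 56 members (28.6%), against 1266 of all 27025 genes with a window (4.7%). At a minimum of 8 it was 21 of the 56 members (37.5%) and 2986 of all genes, and at a minimum of 6 it was 33 members (58.9%) and 7466 of all genes (27.6%). Such a stretch need not hold the start base itself. The 5 longest are shown because they all span the annotated start. Each line runs from 35 bases before to 15 bases after the annotated start, 5′ to 3′ on the gene's strand. Capitals mark the counted part of the stretch.
Rpl27a, chr7:109519160-109519209, plus strand: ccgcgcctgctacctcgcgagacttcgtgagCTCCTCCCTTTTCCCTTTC
Rpl35, chr2:39005117-39005166, minus strand: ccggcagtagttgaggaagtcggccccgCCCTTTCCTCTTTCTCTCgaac
Rpl15, chr14:18270972-18271021, minus strand: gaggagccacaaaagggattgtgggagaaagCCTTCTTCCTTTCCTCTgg
Rpl7a, chr2:26910772-26910821, plus strand: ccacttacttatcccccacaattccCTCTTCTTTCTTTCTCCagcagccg
Rpl14, chr9:120571482-120571531, plus strand: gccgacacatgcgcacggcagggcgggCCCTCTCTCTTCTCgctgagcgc
A window without a stretch says only that the letters are not at that annotated start. Members with a stretch of at least 10 had a median log2 fold change of 0.10 (16 members, 14 positive and 2 negative). Members with a window and no such stretch had a median of 0.10 (38 tested members, 33 positive and 5 negative).

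Levels per length spanned a wide range. On the deposited RPKM scale (reads scaled to gene length and library total), averaged over the 6 libraries, the 72 ordinary members ran from 57.6 for Rpl27a to 1474 for Rps27, with a median of 328. The 90th percentile was 7.84 times the 10th. RPKM divides by the listed gene length, which for the 72 was 0.521 to 6.79 times the length of 1 principal transcript per gene (GENCODE M21), longer for 56 and shorter for 16. Divided instead by the transcript's length, TMM-scaled CPM per kilobase ran from 96.9 to 1324 with a median of 514, and the same percentiles differed 4.34-fold. The order of the members on these scales had a Spearman correlation of 0.606 across 72 genes, given as a description. Levels between members therefore depended on the length used, while comparisons of 1 gene between libraries did not.

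**Figure D1:**
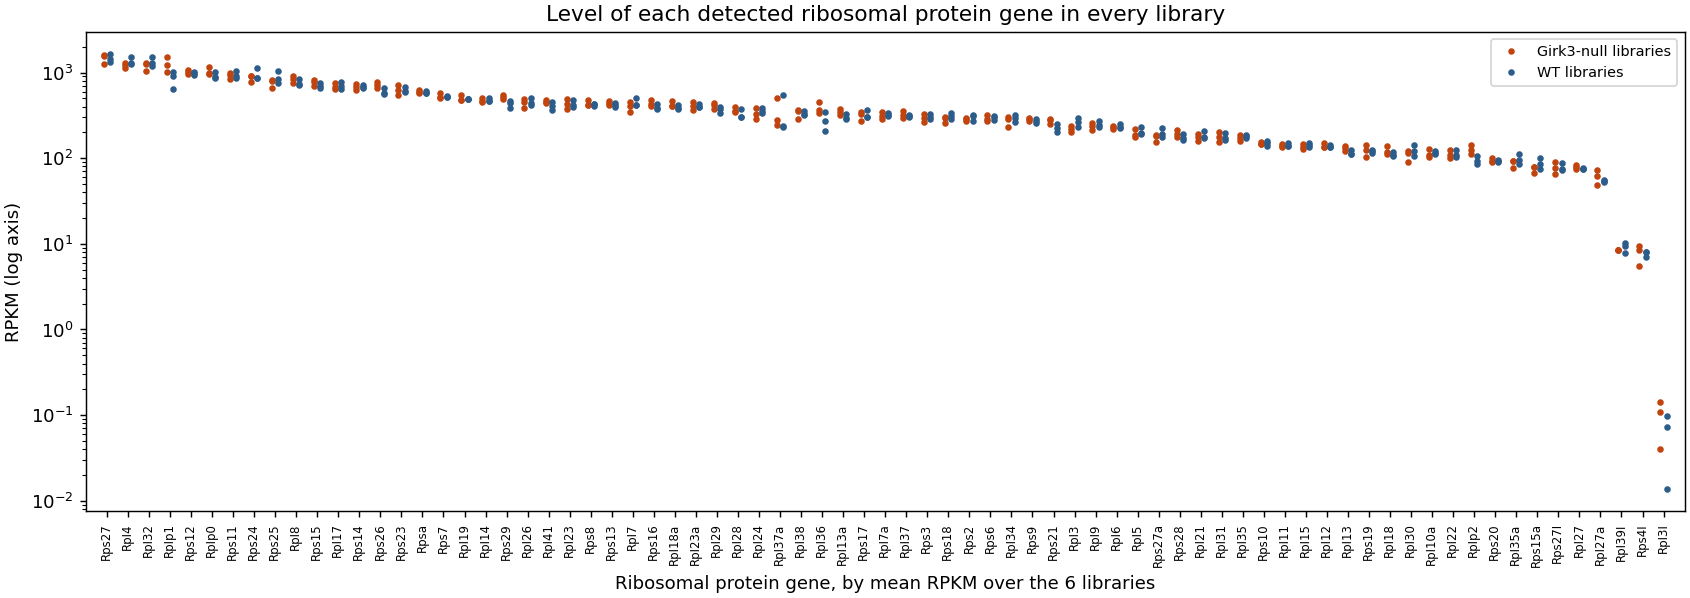
Deposited RPKM (log axis) of the detected ribosomal protein genes (all but 1 drawn), ordered by their mean over the 6 libraries; each point is 1 library, Girk3-null in orange on the left and WT in blue on the right of each gene. Rps27 stands highest at a mean of 1474 RPKM, and Rpl39l, Rps4l and Rpl3l lie far below the other members.

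Rps27, Rpl4, Rpl32, Rplp1 and Rps12 had the highest RPKM. Rps27, a zinc-binding protein of the small subunit, measured 1477 ± 182 RPKM in Girk3-null and 1470 ± 160 RPKM in WT libraries (mean ± SD, n = 3 each, as for every mean below). Rpl4, which reaches into the exit tunnel for the new peptide, measured 1216 ± 78.4 RPKM in Girk3-null and 1347 ± 138 RPKM in WT libraries. Both differences were smaller than the SD of the WT libraries. The lowest detected members were Rpl3l, Rps4l and Rpl39l, all copies, followed by Rpl27a at 57.6 RPKM and Rpl27 at 77.1 RPKM.

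The members took a similar part of all counts in both genotypes. Their share was 4.06%, 3.74% and 3.60% in Girk3-null replicates 1, 2 and 3, against 3.66%, 3.95% and 3.75% in WT replicates 1, 2 and 3. The groups overlapped, and the highest and the lowest shares were both in Girk3-null libraries. The mean share was 3.80 ± 0.238% in Girk3-null and 3.79 ± 0.148% in WT libraries, a difference of 0.0157 percentage points (exact two-sided permutation test over 6 libraries, p = 1; the smallest p this design allows is 0.1). Without Girk3-null replicate 1 the difference was −0.116 percentage points. Counting error is small beside that spread: the 95% Wilson intervals were 0.005 to 0.006 percentage points to either side and cover counting error only. Col2a1, the main cartilage collagen, took 5.04%, 7.09% and 8.25% of counts in the Girk3-null libraries and 4.16%, 3.12% and 5.33% in the WT libraries. With its counts left out of the totals, the members' share was 4.28%, 4.03% and 3.92% in Girk3-null and 3.82%, 4.08% and 3.96% in WT libraries, and the groups still overlapped.

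Summed over members, RPKM gave 31957, 29526 and 28768 in Girk3-null replicates 1, 2 and 3, against 28336, 30420 and 29526 in WT replicates 1, 2 and 3. The mean was 30083 ± 1666 in Girk3-null and 29428 ± 1045 in WT libraries (exact permutation test, two-sided, p = 0.7). The balance of the subunits differed by less than the spread between replicates. The ratio of summed small to summed large subunit RPKM was 0.885 ± 0.0346 in Girk3-null and 0.899 ± 0.0297 in WT libraries (exact permutation test, two-sided, p = 0.7).

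Gene by gene, 75 members had enough counts to be tested with edgeR's quasi-likelihood test across 17554 genes, with Benjamini-Hochberg adjustment over all of them. None of the 75 passed an adjusted p of 0.05, and the lowest adjusted p among them was 0.291. Over all genes tested 1 passed, or 0.0057%. At an unadjusted p under 0.05 there were 6 members, all higher in Girk3-null (8%), where the same direction held 7.49% of all genes. No member was lower at that threshold, against 7.02% of all genes. DESeq2 called 0 members and 340 genes in all (1.94%), and limma-voom called 0 members and 0 genes. Each put 8 members higher at an unadjusted p under 0.05, where DESeq2 put 7.82% and limma-voom 8.11% of all genes, and 0 members lower, against 7.67% of all genes in DESeq2 and 7.43% in limma-voom.

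The fold changes were small and mostly of one sign. The log2 fold change, Girk3-null over WT, was positive for 63 members and negative for 12 (38 and 37 with library totals as the scale), with a median of 0.10, a middle range (quartiles) of 0.04 to 0.21 and extremes of −0.15 and 0.64. Over all genes 51.8% were positive, with a median of 0.01. The large subunit (44 tested, 37 positive and 7 negative) had a median of 0.09, and the small subunit (31 tested, 26 positive and 5 negative) had a median of 0.12. Of the 75 members, 56 lay within 0.2 of 0 in either direction. With library totals in place of TMM factors (edgeR's correction for uneven composition), the members' median was 0.00, and the median of all genes moved by −0.11 on the log2 scale. Relative to the median of all genes, the members' median was 0.09 higher with TMM factors and 0.09 higher with library totals, 0.05 higher on log2(RPKM + 1) and 0.04 higher with a length trend subtracted. It also rested in part on single libraries, as it was 0.06 without Girk3-null replicate 1 (56 positive, 19 negative) and 0.05 without WT replicate 1 (55 positive, 20 negative).

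**Figure D2:**
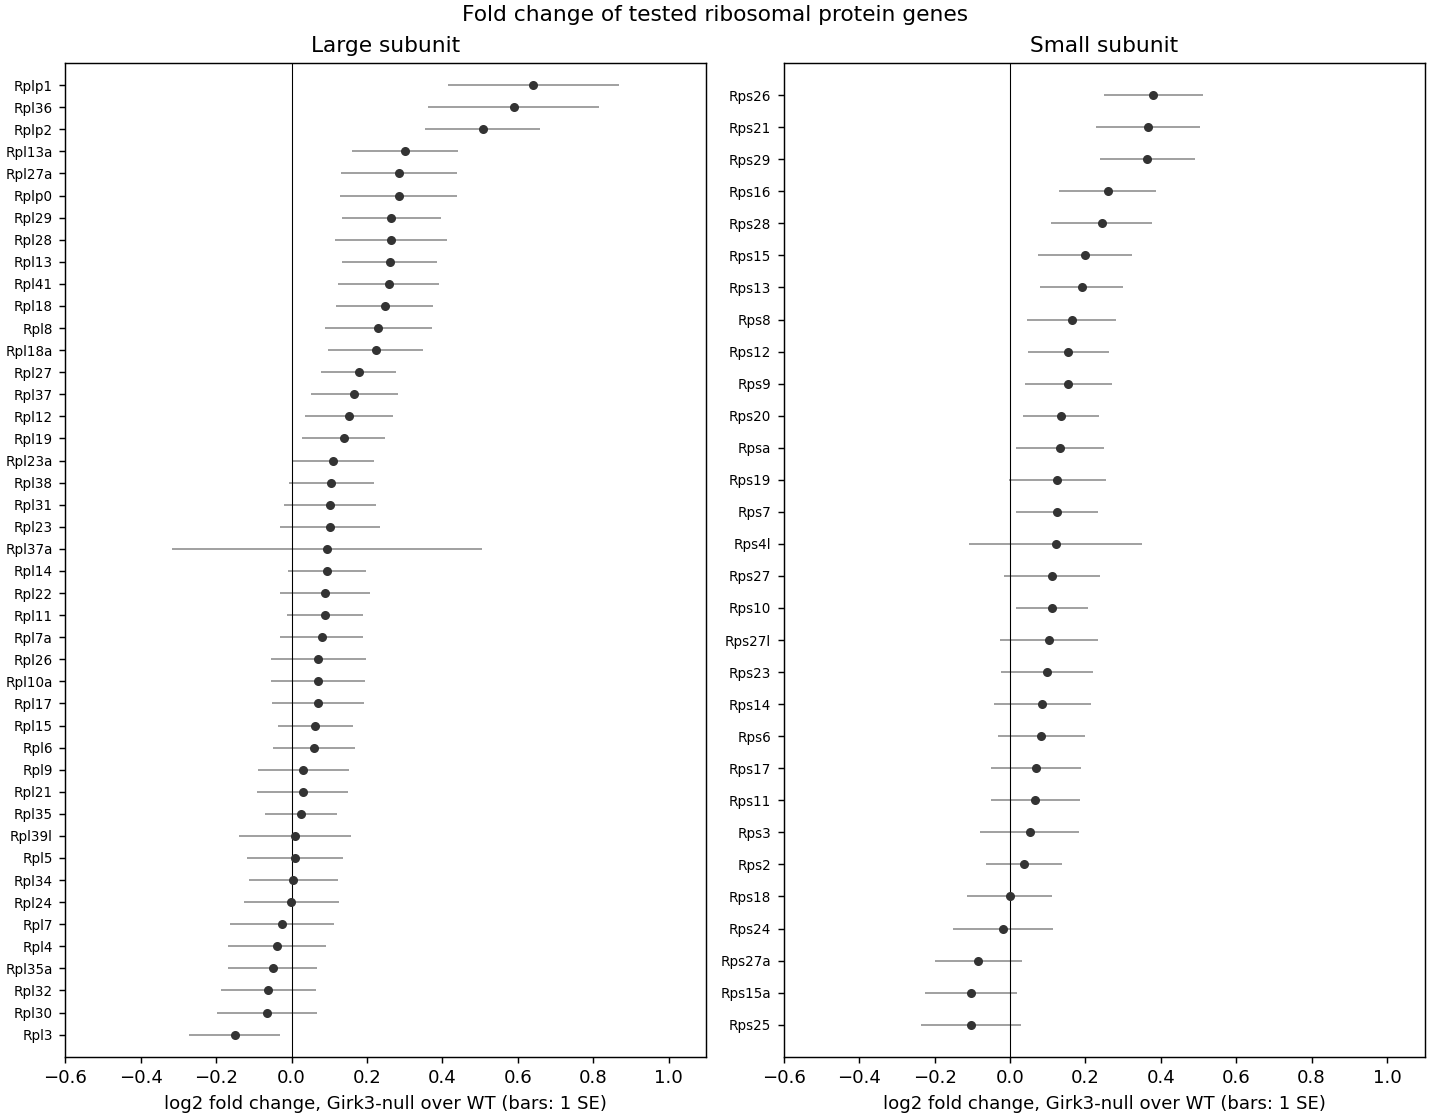
Log2 fold change (Girk3-null over WT, edgeR with TMM factors) of the tested ribosomal protein genes (all but 1 drawn), large subunit on the left and small subunit on the right, with bars of 1 standard error. With these factors 63 of the 75 tested are above 0 and 12 below (38 and 37 with library totals), Rplp1, Rpl36 and Rplp2 stand furthest to the right, and none passed an adjusted p of 0.05.

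For 12 of the 75 members the groups stood clear of each other, all with the Girk3-null libraries above the WT libraries (16%), where 9.86% of all genes did so in that direction. No member had all Girk3-null libraries below all WT libraries, against 10.2% of all genes. Of the 12, 4 belong to the large subunit (Rplp2, Rpl41, Rpl14 and Rpl11) and 8 to the small subunit, among them Rps26, Rps29, Rps13, Rps12, Rps9, Rps20 and Rps10.

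The acidic stalk of the large subunit held the largest fold change of any member, that of Rplp1, and the third largest, that of Rplp2. Rplp0 anchors the stalk and carries dimers of Rplp1 and Rplp2, and the tails of all 3 proteins bind and activate the GTPase factors of translation. Their shared tail is shown because it is the part that links these members. The lines give the last 42 bases of each coding sequence (GENCODE M21, GRCm38), stop codon included, with capitals for bases that are not the same in all 3 genes.
Rplp0, bases 913 to 954: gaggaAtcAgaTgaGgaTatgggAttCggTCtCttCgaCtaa
Rplp1, bases 304 to 345: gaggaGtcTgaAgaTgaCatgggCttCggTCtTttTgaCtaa
Rplp2, bases 307 to 348: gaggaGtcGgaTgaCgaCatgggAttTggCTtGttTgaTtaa
Over their whole length Rplp1 and Rplp2 were less alike, with 47 of 108 aligned residues identical (43.5%).

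Rplp1 (ENSMUSG00000007892; chromosome 9, 61913284 to 61914538, mm10) measured 625, 514 and 796 CPM in Girk3-null replicates 1, 2 and 3, against 422, 299 and 519 CPM in WT replicates 1, 2 and 3 (counts scaled to the library total with TMM factors, as for every CPM below). Girk3-null replicate 3 was the highest and WT replicate 2 the lowest, and the groups overlapped, since WT replicate 3 lay above Girk3-null replicate 2. The mean was 645 ± 142 CPM in Girk3-null and 413 ± 111 CPM in WT libraries, a log2 fold change of 0.64 ± 0.23 (standard error) with an adjusted p of 0.298 in edgeR's test. Rplp2 (ENSMUSG00000025508; chromosome 7, 141447370 to 141451585) measured 260, 241 and 312 CPM in Girk3-null, against 180, 165 and 228 CPM in WT libraries. All 3 Girk3-null libraries were above all 3 WT libraries, and the same libraries were the highest and the lowest. Its log2 fold change of 0.51 ± 0.15 had the smallest p of any member (unadjusted 0.0098, adjusted 0.291 in edgeR). Rplp0 (ENSMUSG00000067274; chromosome 5, 115559467 to 115563727) was the most abundant of the 3, at 1967, 1631 and 1766 CPM in Girk3-null and 1372, 1313 and 1721 CPM in WT libraries. WT replicate 3 lay among the Girk3-null values, and the log2 fold change was 0.28 ± 0.15 (edgeR adjusted p = 0.402).

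Among the other large subunit members, Rpl36 had the largest fold change, between those of Rplp1 and Rplp2. Rpl36 (ENSMUSG00000057863; chromosome 17, 56613395 to 56614243) measured 153, 140 and 199 CPM in Girk3-null, against 103, 77.6 and 146 CPM in WT libraries. WT replicate 3 lay above Girk3-null replicate 2, so the groups overlapped, and WT replicate 2 was again the lowest library. The log2 fold change was 0.59 ± 0.23 with an edgeR adjusted p of 0.308. Rpl13a, a subunit protein that in human cells also leaves the ribosome to repress inflammatory mRNAs, averaged 1090 ± 93.7 CPM in Girk3-null and 885 ± 115 CPM in WT libraries.

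Rpl3, which lies close to the peptidyl transferase centre, had the most negative fold change of any member. It measured 649, 763 and 733 CPM in Girk3-null, against 784, 848 and 750 CPM in WT libraries. The groups overlapped by 1 library on each side. The log2 fold change was −0.15 ± 0.12 (edgeR adjusted p = 0.556). Rpl30, whose yeast counterpart restrains the splicing of its own transcript, and Rpl32 were the next lowest of the large subunit. Rpl30 averaged 342 ± 41.6 CPM in Girk3-null and 358 ± 37.6 CPM in WT libraries, and Rpl32 averaged 640 ± 56.4 CPM in Girk3-null and 669 ± 59.99 CPM in WT libraries. Their signs turned positive when Girk3-null replicate 3 or WT replicate 2 was left out.

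Several large subunit members are known from mouse or human phenotypes, and none of them passed the test. Rpl38, mutated in the Tail-short mouse with its axial skeleton defects, measured 198, 202 and 166 CPM in Girk3-null, against 163, 181 and 183 CPM in WT libraries. Girk3-null replicate 3 lay among the WT values, and the log2 fold change was 0.11 ± 0.11 (edgeR adjusted p = 0.669). Rpl13, altered in a human spondyloepimetaphyseal dysplasia, averaged 318 ± 24.5 CPM in Girk3-null and 266 ± 34.2 CPM in WT libraries, with a log2 fold change of 0.26 ± 0.13 (edgeR adjusted p = 0.368). Rpl24, mutated in the Belly spot and tail mouse, averaged 356 ± 44.9 CPM in Girk3-null and 356 ± 26.0 CPM in WT libraries, a log2 fold change of 0.00 ± 0.13.

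Rpl5 and Rpl11 join the 5S ribosomal RNA in a particle that also binds Mdm2 and so stabilises p53. Rpl5 averaged 784 ± 71.3 CPM in Girk3-null and 779 ± 64.7 CPM in WT libraries, a log2 fold change of 0.01 ± 0.13. Rpl11 measured 400, 386 and 387 CPM in Girk3-null, against 347, 372 and 385 CPM in WT libraries. Its groups did not overlap, but the gap between the closest libraries was small and the edgeR adjusted p was 0.694. Rpl22, whose loss in mice blocks the growth of one class of T cells, averaged 337 ± 27.5 CPM in Girk3-null and 317 ± 30.9 CPM in WT libraries.

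In the small subunit the members furthest above 0 were Rps26, Rps21 and Rps29. Rps26, which contacts the mRNA where it leaves the ribosome, measured 357, 307 and 347 CPM in Girk3-null, against 236, 239 and 302 CPM in WT libraries (ENSMUSG00000025362; chromosome 10, 128624530 to 128626506). Its groups did not overlap, though WT replicate 3 came within a few CPM of Girk3-null replicate 2. The log2 fold change was 0.38 ± 0.13 with an edgeR adjusted p of 0.294. Rps29, a small zinc-binding protein (ENSMUSG00000034892; chromosome 12, 69157722 to 69159186), measured 384, 354 and 381 CPM in Girk3-null, against 286, 251 and 332.5 CPM in WT libraries. All Girk3-null libraries were higher, with WT replicate 2 the lowest of the 6, and the log2 fold change was 0.36 ± 0.13 (edgeR adjusted p = 0.295). Rps21 (ENSMUSG00000039001; chromosome 2, 180257377 to 180258445) measured 239, 208 and 243.5 CPM in Girk3-null, against 171, 154 and 211 CPM in WT libraries. WT replicate 3 lay above Girk3-null replicate 2, and the log2 fold change was 0.37 ± 0.14 (edgeR adjusted p = 0.306).

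Rps25, Rps15a and Rps27a stood lowest in the small subunit. Rps25, needed for initiation at certain viral entry sites, measured 551, 575 and 481 CPM in Girk3-null, against 537, 656 and 533 CPM in WT libraries. WT replicate 2 was the highest library, the reverse of its place for Rplp1 and Rpl36, and the log2 fold change was −0.10 ± 0.13 (edgeR adjusted p = 0.725). Rps15a had a log2 fold change of −0.10 ± 0.12. Rps27a, made as a fusion with ubiquitin, had one of −0.08 ± 0.12 (edgeR adjusted p = 0.748).

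The remaining small subunit members with known roles lay between these. Rps6, the main ribosomal substrate of S6 kinases, measured 515, 464 and 457 CPM in Girk3-null, against 415, 451 and 489 CPM in WT libraries. The groups overlapped, and the log2 fold change was 0.08 ± 0.12 (edgeR adjusted p = 0.747). Rpsa, also described as a laminin receptor, averaged 1155 ± 41.4 CPM in Girk3-null and 1053 ± 55.6 CPM in WT libraries, a log2 fold change of 0.13 ± 0.12. Rps19 and Rps20, mutated in dark-skinned mice, averaged 597 ± 78.8 CPM and 399.9 ± 16.4 CPM in Girk3-null, against 547 ± 14.6 CPM and 364 ± 13.2 CPM in WT libraries. Of this pair Rps20 did not overlap between the groups, with a log2 fold change of 0.14 ± 0.10 (edgeR adjusted p = 0.529), while Rps19 did.

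**Figure D3:**
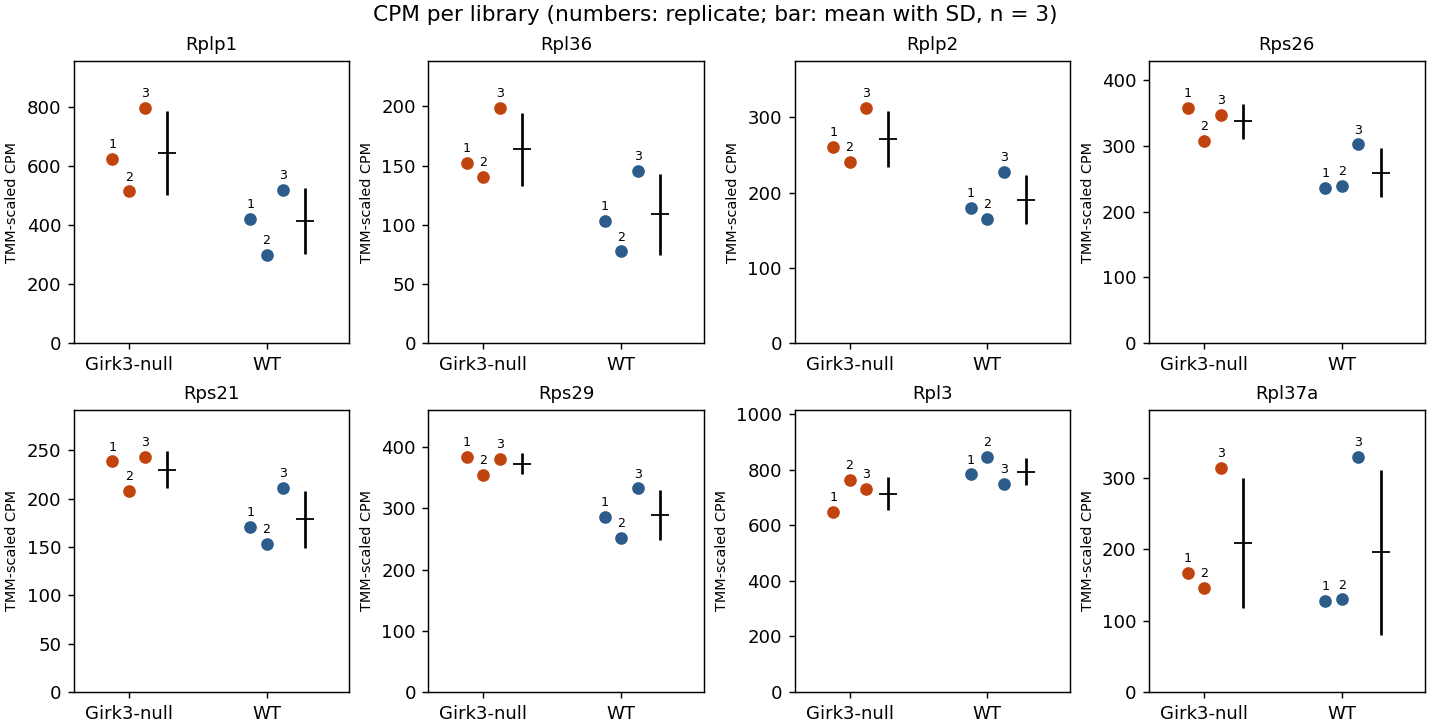
TMM-scaled CPM of 8 ribosomal protein genes in each library (points, numbered by replicate), Girk3-null on the left and WT on the right of each panel, with the mean and SD (n = 3) beside the points and axes that start at 0. WT replicate 3 lies inside the Girk3-null range for Rplp1, Rpl36, Rps21 and Rpl3, and Rpl37a is high in Girk3-null replicate 3 and WT replicate 3 alone.

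The 5 copies were read apart from the ordinary members. Rps27 and Rps27l, a copy induced by p53, differ at 61 of 255 bases of coding sequence but at only 3 of 84 residues (96.4% identical). Their coding sequences are shown because they illustrate how reads can tell a near-identical protein pair apart (GENCODE M21, GRCm38; capitals mark the bases that differ).
Rps27, chromosome 3, 90212725 to 90213615, minus strand: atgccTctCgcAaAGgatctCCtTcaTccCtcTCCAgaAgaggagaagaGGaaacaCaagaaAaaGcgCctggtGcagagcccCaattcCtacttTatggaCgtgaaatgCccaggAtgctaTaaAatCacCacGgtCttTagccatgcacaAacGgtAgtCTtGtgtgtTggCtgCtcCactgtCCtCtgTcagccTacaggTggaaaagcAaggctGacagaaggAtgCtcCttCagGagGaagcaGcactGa
Rps27l, chromosome 9, 66946086 to 66949516, plus strand: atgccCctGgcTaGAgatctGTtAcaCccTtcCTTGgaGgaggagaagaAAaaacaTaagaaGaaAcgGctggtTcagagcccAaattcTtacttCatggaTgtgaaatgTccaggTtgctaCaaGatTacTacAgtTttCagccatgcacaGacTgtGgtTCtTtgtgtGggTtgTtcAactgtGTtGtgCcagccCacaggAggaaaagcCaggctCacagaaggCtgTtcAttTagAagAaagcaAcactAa
Rps27l measured 75.8, 55.5 and 67.8 CPM in Girk3-null, against 57.7, 65.9 and 61.7 CPM in WT libraries, and Rps27 measured 420, 409 and 347 CPM in Girk3-null, against 321, 391 and 377 CPM in WT libraries. The groups of both genes overlapped, with log2 fold changes of 0.10 ± 0.13 for Rps27l and 0.11 ± 0.13 for Rps27.

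The other copies were low or absent. Rpl3l, which takes the place of Rpl3 in heart and skeletal muscle, had 4, 8 and 8 counts in Girk3-null replicates 1, 2 and 3, against 1, 8 and 5 counts in WT replicates 1, 2 and 3, too few to be tested. Its coding sequence shares 74.9% of aligned bases with Rpl3. Rpl10l, a retrogene of the X-linked Rpl10 used in male germ cells, had 0 counts in every library, which allows up to 3 counts, or 0.0497 to 0.0875 CPM depending on the library. Rpl39l, the germ-cell copy of the X-linked Rpl39, was steady at 7.19, 7.31 and 7.58 CPM in Girk3-null, against 7.92, 7.27 and 6.74 CPM in WT libraries. Rps4l, a copy of the X-linked Rps4x, measured 5.35, 8.14 and 9.57 CPM in Girk3-null, against 7.07, 6.22 and 7.86 CPM in WT libraries. The sign of its difference changed with the setting. It is listed as protein-coding in the deposited data, but its principal transcript in GENCODE M21 has no annotated coding sequence. Reads of such copies and of processed pseudogenes may be shared with their parents, and how the authors' counting treated them is not given in the sources used here. The 252 listed pseudogenes named after ribosomal proteins held 480649 counts, 4.55% of the members' own 10559454. For 12 members the pseudogenes' counts exceeded 10% of their own, with the highest shares for Rps27a (58.7%), Rpl31 (43.5%), Rpl38 (39.5%) and Rpl14 (35.1%), so the values of these members are uncertain.

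The ordinary members varied less than other genes. The SD of log2 CPM over the 6 libraries had a median of 0.127 over the 72, against 0.263 over all 17554 genes tested. Against 1466 other genes at or above the level of the lowest ordinary member, where counting noise is also small, the median was 0.178. The median absolute log2 fold change was 0.107 for the members, 0.218 for all genes and 0.169 for the 1466.

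**Figure D4:**
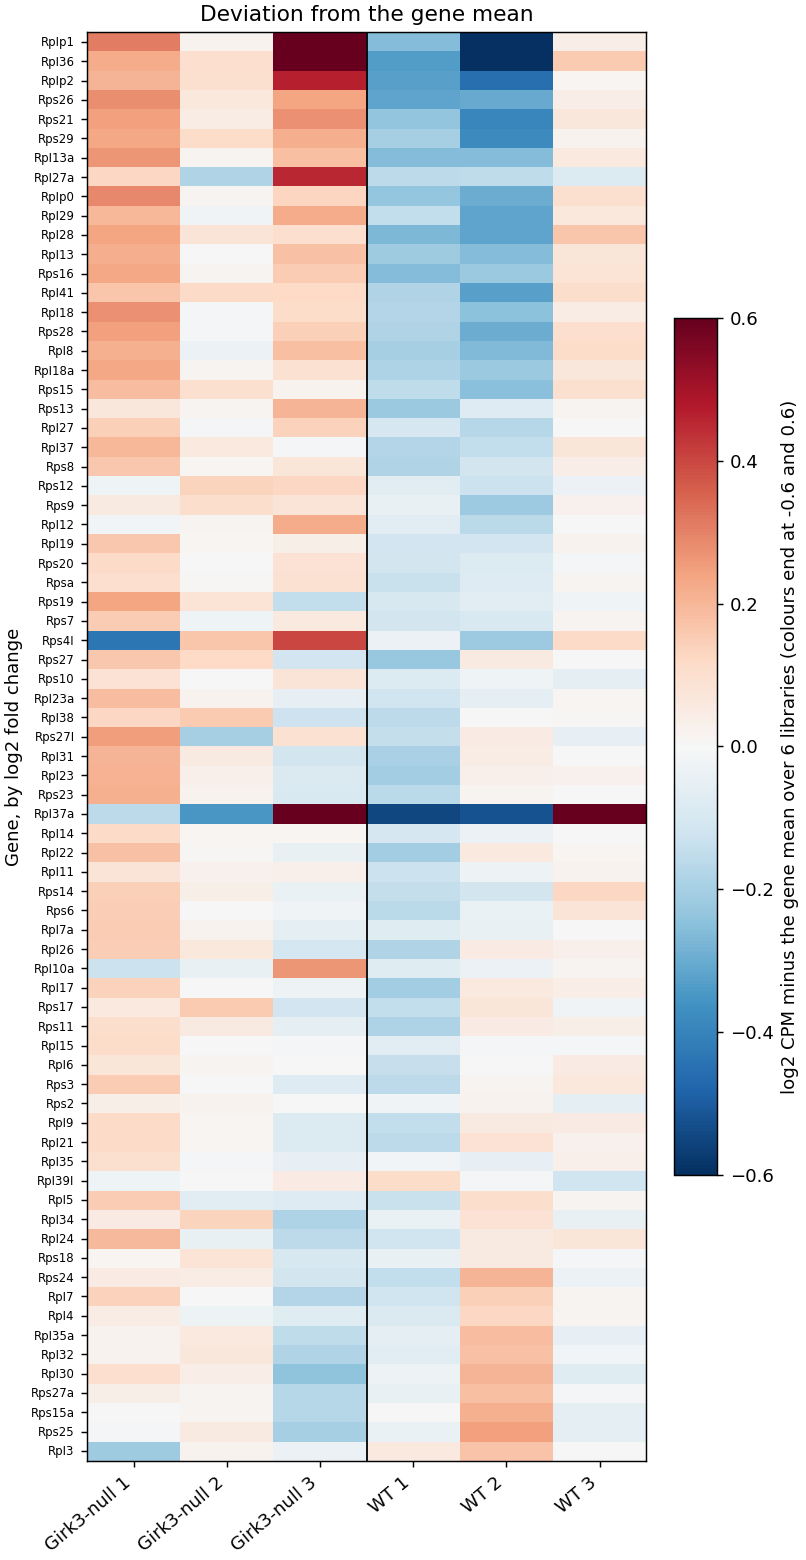
Log2 CPM minus the gene's mean over the 6 libraries for the tested ribosomal protein genes (all but 1 drawn), ordered by log2 fold change, with Girk3-null libraries left of the line and WT libraries right of it (colours end at −0.6 and 0.6). Girk3-null replicate 1 is above the mean for most genes and WT replicate 1 below it, while Girk3-null replicate 3 and WT replicate 2 run from one sign at the top to the other at the bottom.

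The libraries departed from the mean in different ways. The median member deviated by 0.14, 0.02 and 0.01 (log2) in Girk3-null replicates 1, 2 and 3, against −0.15, −0.05 and 0.02 in WT replicates 1, 2 and 3. Girk3-null replicate 1 and WT replicate 1 thus lay furthest out, while the other 4 libraries lay within 0.1 of 0. The mean was 0.06 ± 0.07 in Girk3-null and −0.06 ± 0.08 in WT libraries (exact permutation test, two-sided, p = 0.2). Girk3-null replicate 3 and WT replicate 2 were close to 0 at the median because their members lay on both sides. Across the 72 ordinary members the deviations in these libraries were opposed, with a Pearson correlation of −0.881 and a Spearman correlation of −0.876 over 72 genes, which share the same libraries and are centred on the same mean. Rplp1, at 0.65 in Girk3-null replicate 3 and −0.76 in WT replicate 2, was at one end of this pattern, and Rps25 was at the other.

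The fold changes varied with the base composition of the transcripts. The 10 ordinary members with the highest fold changes had a median GC content of 53.3% and a median transcript length of 707 bases, and the 10 with the lowest had 48.7% and 1221.5 bases. Across the 72, GC content and log2 fold change had a Pearson correlation of 0.41 and a Spearman correlation of 0.398. The same relation ran through 14474 other protein-coding genes, at a Pearson correlation of 0.331 and a Spearman correlation of 0.417. Their median log2 fold change was −0.19 where GC content was under 42%, −0.13 from 42 to 46%, −0.05 from 46 to 50%, 0.04 from 50 to 54%, 0.14 from 54 to 58% and 0.25 above that. The ordinary members' median was −0.01 from 42 to 46% (4 members), 0.09 from 46 to 50% (18 members), 0.11 from 50 to 54% (23 members) and 0.16 from 54 to 58% (22 members), each above that of the other genes. Above 58% it was 0.17 (4 members), below that of the other genes, and 1 member lay under 42%. Fold changes were also lower in longer transcripts: the other genes' median was 0.18 up to 600 bases, 0.13 from 600 to 1000, 0.05 from 1000 to 2000 and −0.09 above 8000 bases. The ordinary members' median was 0.17 up to 600 bases (16 members), 0.09 from 600 to 1000 (28 members) and 0.09 from 1000 to 2000 (23 members), so the members up to 1000 bases were not above other genes of their length. Ribosomal protein transcripts are short, with a median of 886.5 bases against 2993 for the other genes. After the trend with GC content was subtracted from each library, the members' median log2 fold change was 0.08 (54 positive, 21 negative), against −0.01 for all genes. After the trend with length was subtracted it was 0.03 (51 positive, 24 negative), against −0.01 for all genes. With the GC trend subtracted, the log2 fold change was 0.46 for Rplp1, 0.41 for Rps26, 0.39 for Rplp2 and 0.34 for Rpl36.

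**Figure D5:**
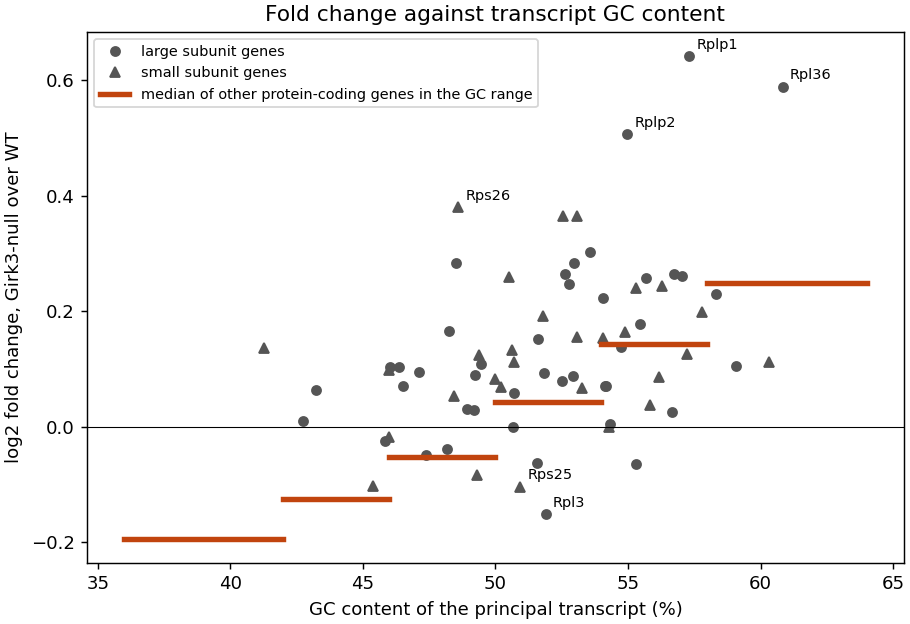
Log2 fold change (Girk3-null over WT) of the 72 ordinary ribosomal protein genes against the GC content of the principal transcript, circles for large and triangles for small subunit genes; bars give the median of other protein-coding genes in each GC range, the outer bars standing for all genes under 42% and above 58%. The bars climb from −0.19 to 0.25, and the ribosomal protein genes' median is above the bar in each range up to 58% and below it in the last, which holds 4 of them.

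Rpl37a, a zinc-binding protein of the large subunit, was singled out after its values were seen. It measured 167, 146 and 314 CPM in Girk3-null replicates 1, 2 and 3, against 128, 130 and 330 CPM in WT replicates 1, 2 and 3. Girk3-null replicate 3 and WT replicate 3 were high together, and the lower of them was 1.88 times the highest of the other 4 libraries. The next member by this ratio was Rpl10a at 1.04. Among 14086 tested genes with at least 300 counts in all, Rpl37a ranked 3rd by this ratio. Its SD of 0.627 on the log2 scale was the largest of any tested member, ahead of Rplp1 at 0.483. The split did not follow genotype, and the log2 fold change was 0.09 ± 0.41 (edgeR adjusted p = 0.930). Of its neighbours on chromosome 1, Igfbp2 was also highest in these libraries, by far less, at 5.74 CPM in Girk3-null replicate 3 and 4.93 CPM in WT replicate 3, against 3.73 to 4.36 CPM in the other 4. Igfbp5 and Xrcc5 were lowest in them, and Smarcal1 was at 24.3 CPM in Girk3-null replicate 3 and 26.0 CPM in WT replicate 3, against 20.7 to 25.6 CPM in the other 4.

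Some ribosomal protein genes are missed by the name pattern. Of 5 tested, 4 were higher and 1 lower, with a median log2 fold change of 0.14 and none passing. Fau, whose product releases Rps30, averaged 326 ± 21.8 CPM in Girk3-null and 259 ± 58.3 CPM in WT libraries. Of 7 ribosomal protein relatives outside the pattern, 6 were lower and 1 higher (median −0.13), and none passed. Rpl22l1, the paralog that Rpl22 holds down in mice, averaged 176 ± 28.1 CPM in Girk3-null and 235 ± 26.8 CPM in WT libraries, a log2 fold change of −0.42 ± 0.15 (edgeR adjusted p = 0.295).

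The genes that build ribosomes had mostly negative fold changes. Of 86 ribosome assembly factors tested, 10 had positive and 76 negative log2 fold changes, with a median of −0.23, and 0 passed. At an unadjusted p under 0.05, 24 of the 86 were lower and 0 higher, against 7.02% and 7.49% of all genes. The list's mean log2 CPM was 5.117, 5.415 and 5.351 in Girk3-null replicates 1, 2 and 3, against 5.611, 5.626 and 5.339 in WT replicates 1, 2 and 3. The groups overlapped in this mean, since WT replicate 3 lay below Girk3-null replicates 2 and 3. Nmd3, the export adapter of the large subunit, averaged 33.3 ± 5.41 CPM in Girk3-null and 50.8 ± 8.70 CPM in WT libraries, a log2 fold change of −0.61 ± 0.17 (edgeR adjusted p = 0.291). Riok2, a kinase that matures the small subunit, averaged 34.9 ± 1.67 CPM in Girk3-null and 47.6 ± 8.79 CPM in WT libraries. Their transcripts had a median GC content of 48.4% and a median length of 2738 bases, against 51.9% and 886 bases for the tested members. The list's median was −0.24 with the GC trend subtracted and −0.14 without Girk3-null replicate 1. The RNA polymerase I machinery, which transcribes ribosomal RNA, had 5 positive and 10 negative (median −0.11, 0 passing, and −0.04 without Girk3-null replicate 1). Among its genes Rrn3, the initiation factor of that polymerase, averaged 39.1 ± 2.13 CPM in Girk3-null and 49.4 ± 5.41 CPM in WT libraries. Host RNAs of snoRNAs carry guides of ribosomal RNA modification in their introns and often share the pyrimidine start. The list of them had 4 positive and 8 negative (median −0.17, 0 passing, and −0.11 without Girk3-null replicate 1). These counts include Mir17hg, a microRNA host and not a snoRNA host, which had the list's most negative log2 fold change (−0.85).

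Factors that work with the ribosome were spread around 0 or below. The 36 initiation factors had 9 positive and 27 negative (median −0.11, and −0.17 to −0.05 when a library was left out, −0.05 being the value without Girk3-null replicate 1). Eif5, which triggers start-codon GTP hydrolysis, averaged 352 ± 56.6 CPM in Girk3-null and 487 ± 58.9 CPM in WT libraries, a log2 fold change of −0.47 ± 0.15 (edgeR adjusted p = 0.291). The 15 elongation and termination factors had 8 positive and 7 negative (median 0.02), and the 22 mTOR, Larp1 and Myc regulators had 10 positive and 12 negative (median −0.02). None of these passed. Mitochondrial ribosomal proteins, which serve a separate ribosome, had 45 positive and 32 negative of 77 (median 0.04, 0 passing, and −0.02 to 0.09 when a library was left out). Named ribosomal protein pseudogenes had 81 positive and 41 negative of 122 (median 0.06, 0 passing, and 0.00 to 0.20 when a library was left out). With library totals in place of TMM factors the medians of the last 2 lists turned negative (−0.08 and −0.05), as did that of the elongation and termination factors (−0.09), while that of the assembly factors was −0.34.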

How the data were processed

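RNA-seq was analysed from 3 Girk3-null and 3 WT chondrocyte libraries, grouped by the genotype label. Per the file headers, the deposited table gives raw gene counts and RPKM side by side. The authors made the RPKM from reads per gene, its length and the library's reads, per the labels' protocols. The submitters' processing notes name bcl2fastq 2.19.0, STAR 2.5.2b and build mm10. How reads were assigned to genes (tool, annotation, strand) is not given in the sources used.

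Counts were tested with edgeR 4.0.16 in R 4.3.3 (quasi-likelihood test on genotype alone, TMM factors, filterByExpr at 10 counts and 15 in total, Benjamini-Hochberg threshold 0.05). Of 43346 genes, 17554 were kept, holding 99.9% of counts. Standard errors were derived from the test statistic. Log2 CPM had a prior count of 2. RPKM served for levels, and as log2(RPKM + pseudocount) in limma 3.58.1 as an alternative. DESeq2 1.42.0 was another. Single values per library were compared by an exact permutation test over the 20 assignments of libraries. Replicates differed far beyond sampling noise (chi-square per degree of freedom 26.3 to 138 in 6 pairs). Depths allow a floor of 3 counts, or 0.0497 to 0.0875 CPM, and such limits cover counting error only. On data simulated for this comparison (17554 genes, 3 runs, 200 changed genes each) 72.4% of the 2-fold and 97.9% of the 4-fold changes were found by edgeR, with 7.64% false calls. The changed genes were drawn only from genes above a minimum mean CPM, and the simulated noise was independent between genes. Shifts that many genes of a library share, such as those related to GC content, were not simulated.

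Named members were the 6 with the largest and the 6 with the smallest fold change, the 6 with the smallest p, the 5 with the highest and the 5 with the lowest detected RPKM, and 20 fixed for their role, and from other lists up to 4 with the smallest p. Rpl37a and Rpl13a fall outside that rule, and a few more are named to complete a count, to show a sequence or as neighbours of Rpl37a. The members, the lists and the rule were chosen with earlier results of these data known. GC content, lengths and coding sequences come from the principal transcript of GENCODE M21 (GRCm38). The GC and length trends were subtracted after seeing the data. A few genes are counted in the totals but not reported here by name.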

Additional observations from a re-analysis of the deposited data

How the results depend on the processing

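No paired analysis was possible because the groups share no replicate number in the labels; numbers were given in deposit order and only name a sample. In place of a block, the libraries were split at 200 by the number in the sample title, and this split was tried as a covariate. Girk3-null replicate 1 and WT replicates 1 and 2 lay below 200. Girk3-null replicates 2 and 3 and WT replicate 3 lay above it, so the split was uneven between the genotypes. It is called the title number below.

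The number of all genes passing was 1 with TMM factors. It was 0 with library totals, limma-voom, limma on log2(RPKM + 0.1) or log2(RPKM + 1), the title number as covariate and limma-trend on log2 CPM, 53 without the filter on low counts and 340 with DESeq2 (184 higher), and 0 to 74 when a library was left out (74 without WT replicate 3). The members passing numbered 0 under every alternative run, and the lowest adjusted p of a member was 0.0706 in edgeR, without WT replicate 3. In that setting 19 of the 75 tested members were higher at an unadjusted p under 0.05 in edgeR, and 0 were lower. Of all 18040 genes in it, 2226 were higher and 1954 lower at that threshold.

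The members' median log2 fold change was 0.000674 with library totals, −0.00578 with log2(RPKM + 0.1) and −0.00576 with log2(RPKM + 1), and 0.0616 to 0.142 without one library. In that order it was −0.00811, −0.0109, −0.0108 and 0.0506 to 0.126 for the large subunit, and 0.0126, 0.00434, 0.00434 and 0.0802 to 0.166 for the small subunit, which stood at 0.0361 with the length trend subtracted. These scalings moved the median of all genes to −0.0935, −0.0926 and −0.0539. Leaving out a library gave differences of −0.116 to 0.117 percentage points for the members' share of counts (−0.116 without Girk3-null replicate 1, −0.0478 without WT replicate 1 and −0.00178 without WT replicate 3), of −281 to 1310 for their summed RPKM (−281 without Girk3-null replicate 1) and of 0.0707 to 0.153 for the median member.

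Signs of single members turned mostly where the fold change was near 0. The turns listed here cover only the 31 named members tested, of which 13 turned in some setting. Over all 75 tested members, 63 were positive with TMM factors, 38 with library totals and 35 on each log2 RPKM scale. More members therefore turned than are listed. With library totals this held for Rpl39l (−0.103), Rps6 (−0.0205), Rps27l (−0.00505), Rpl5 (−0.0979), Rpl11 (−0.0186) and Rpl22 (−0.0166). With log2(RPKM + 0.1) it held for Rps4l (−0.0167), Rpl39l (−0.0934), Rps6 (−0.0229), Rps27l (−0.0135), Rpl38 (−0.00566), Rpl5 (−0.0987), Rpl11 (−0.0185) and Rpl22 (−0.0166). With log2(RPKM + 1) it held for Rps4l (−0.0117), Rpl39l (−0.0855), Rps6 (−0.0229), Rps27l (−0.0132), Rpl38 (−0.00563), Rpl5 (−0.0983), Rpl11 (−0.0184) and Rpl22 (−0.0165). Upper quartile factors turned Rpl39l (−0.0109) and Rpl5 (−0.011), the title number as covariate Rps4l (−0.0706) and Rpl24 (0.0249), the GC trend Rps4l (−0.149), Rpl38 (−0.137) and Rps19 (−0.0724), and the length trend Rpl39l (−0.0676) and Rpl5 (−0.0389). Leaving out a library turned Rpl24 (−0.103 to 0.075 over the 6 libraries left out), Rpl30 (−0.129 to 0.0327), Rpl32 (−0.111 to 0.0119), Rpl4 (−0.091 to 0.0151), Rpl39l (−0.0432 to 0.0705), Rpl5 (−0.0664 to 0.0644), Rps27l (−0.00126 to 0.219) and Rps4l (−0.0654 to 0.33). The cause was not tested. The GC and length trends and limma-trend were added after seeing the data. Members other than the 5 copies held at least 4179 counts in each library, so the spread between libraries, and not depth, limited the precision. Changes under 2-fold were not simulated.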
